A study of Mus musculus with 6 samples.

Results

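Histone genes were measured in polyadenylated RNA of cultured mouse microglia, the resident macrophages of the brain. The 80 genes were chosen by symbol: those starting with Hist1h, Hist2h, Hist3h, Hist4h, H2af, H3f3 or H1f, without 8 pseudogenes and 1 antisense RNA. They are 80 of 49644 gene identifiers in the counts table. Of them, 65 lie in the histone clusters (6 of type H1, 18 H2A, 16 H2B, 12 H3 and 13 H4), and 15 are replacement variants (4 H1, 9 H2A and 2 H3). Hist1h2bm and Hist1h2bh also match the symbols and were not analysed here. The counts table joins genes whose exons overlap, and 6 members stand in 5 such entries: H1fx with a microRNA gene, Hist1h2be with a pseudogene, Hist2h2aa1 with Hist2h3c1 and a processed transcript, Hist3h2a with Trim17, and Hist2h2bb with a noncoding RNA gene.

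The study compared 3 control libraries (A, B and C) with 3 libraries of microglia that had received extracellular vesicles (EV-treated A, B and C). Both groups were cultures from CD1 mice, and the vesicles came from NSC cultures of the subventricular zone of the same strain, pelleted by serial centrifugation. The labels give no age, sex, dose or duration, and do not say what the control cultures received or whether the 3 libraries of a group came from separate cultures. The p-values therefore measure the spread between these libraries, which may be technical.

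Most histone genes lie in clusters, have no introns and are transcribed in S phase to package new DNA. Their messages normally end at a conserved stem-loop, made by a cut that adds no poly(A) tail, so selection on the tail is known to remove most of them. Some cluster genes also have a downstream poly(A) site, and polyadenylated cluster messages are known from cells that have left the cycle. Replacement variants are mostly made throughout the cell cycle from ordinary genes, several with introns, with poly(A) tails. Among them are H3.3 (H3f3a and H3f3b), H2A.Z (H2afz and H2afv), the macroH2A proteins (H2afy and H2afy2) and the linker histone H1.0 (H1f0).

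The stem-loop itself shows how the 2 classes differ in the reference. In GENCODE vM21 transcripts on GRCm38, a match to the consensus of the histone stem-loop, 16 bases long and searched on the transcript strand, stood past the stop codon in 42 of the 65 cluster genes. It stood in 1 of the 15 replacement variants, H2afx. Among 21821 other protein-coding genes, 5 (0.0229%) held a match anywhere in a transcript. The median distance from stop codon to stem-loop was 32 bases (range 21 to 58). A gene with no match may have an annotated end that lies before the stem-loop, and the match is a description of letters alone. The following 6 are shown because they differ in how much sequence is counted past the stem-loop and in how their counts moved; capitals mark the stem-loop.
Hist1h1c, chr13:23739505-23739534, plus strand: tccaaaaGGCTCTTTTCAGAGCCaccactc
Hist3h2a, chr11:58955165-58955194, plus strand: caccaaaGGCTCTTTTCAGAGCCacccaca
Hist1h4i, chr13:22040959-22040988, minus strand: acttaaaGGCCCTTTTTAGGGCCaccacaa
Hist1h2bg, chr13:23571836-23571865, plus strand: acccaaaGGCTCTTTTCAGAGCCacccata
Hist1h4a, chr13:23760793-23760822, minus strand: aaccaaaGGCCCTTCTCAGGGCCgcccaca
H2afx, chr9:44335233-44335262, plus strand: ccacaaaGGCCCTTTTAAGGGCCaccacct
The stem of the H1, H2A and H2B genes shown opens with GGCTC and that of both H4 genes and H2afx with GGCCC. Of all members with a stem-loop, 24 had the letters of Hist1h1c.

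Counts per exon bin were summed for each gene and are given as CPM, counts per 1000000 on a TMM-scaled library. A read can be counted in several bins, so sums are not numbers of distinct reads. The levels of H3f3a and H3f3b are compared per length. Sums, shares and rankings over other genes below are of counts, and also follow the length and number of bins of each gene. The libraries held 109744701 to 162544804 such counts. Of the 16605 entries past the filter on low counts, edgeR's quasi-likelihood test called 66.5% changed at an adjusted p under 0.05, with 33.0% rising and 33.5% falling in EV-treated libraries. In 71.3% the CPM of the groups did not overlap. A call is therefore common in these data, and the counts of members below read against those shares. The median log2 fold change over all entries was -0.02, and -0.38 when scaled by library totals only and -0.14 with upper-quartile scaling.

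Replacement variants passed the filter in 10 of 15 cases. Of these 10, 2 rose (H3f3a and H2afy), 3 fell (H1f0, H2afz and H2afy2) and 5 were not called, or 5 of 10 called against 66.5% over all entries. Their median log2 fold change was -0.11. Scaled by library totals only, 1 rose and 6 fell. Of the other 5, the 3 genes of the H2A.B type, H2afb1, H2afb2 and H2afb3, had no count in any library. H1foo, the linker histone of oocytes, and H1fnt, that of the testis, had at most 8 counts in a library. A count of 0 allows up to 3 counts, 0.0159 to 0.0264 CPM depending on the library, for counting error alone.

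**Figure D1:**
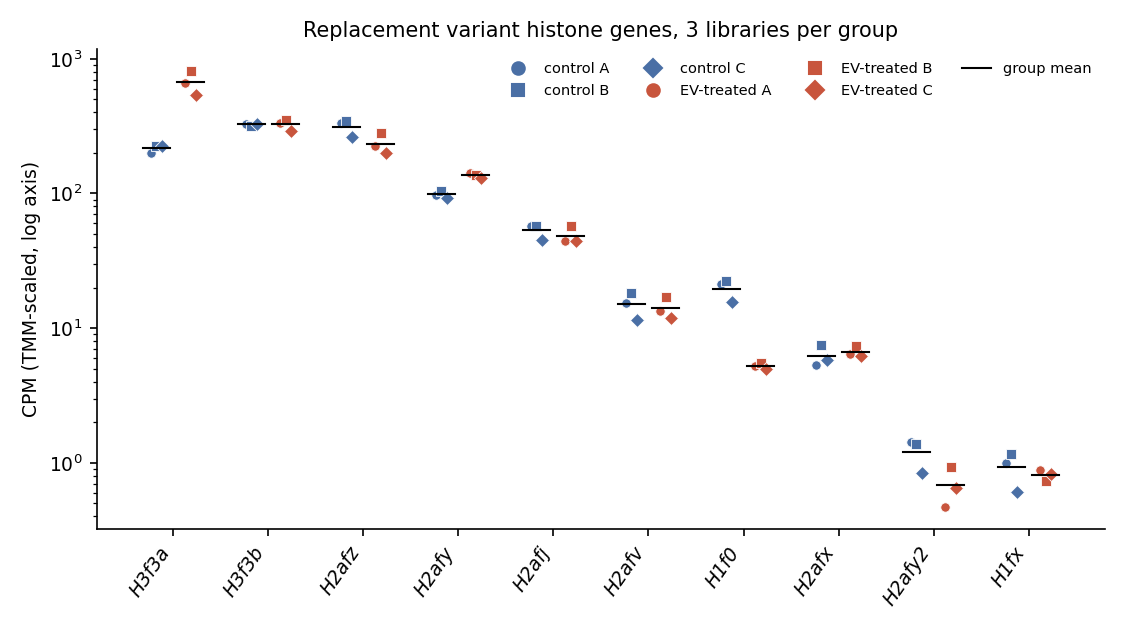
CPM (log axis) of the 10 replacement variant genes past the filter in each library, with control in blue, EV-treated in red, letters A, B and C as circle, square and diamond, and bars at the group means. H3f3a rises from 199 to 225 CPM in control to 535 to 810 CPM in EV-treated libraries, H1f0 falls from 15.6 to 22.2 to 4.97 to 5.51 CPM, and H3f3b stays between 293 and 351 CPM in all 6.

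Of the H3.3 genes, H3f3a rose and H3f3b was not called. Both encode the same histone, H3.3, which replaces H3 outside replication. H3f3a (GRCm38 chromosome 1, 180800832 to 180813943, minus strand) was at 199, 225 and 225 CPM in control A, B and C and at 656, 810 and 535 CPM in EV-treated A, B and C. Every EV-treated library lay above every control library. The log2 fold change was 1.63 (SE 0.16, edgeR adjusted p = 1.31e-05), a level 3.09 times the control. H3f3b (chromosome 11, 116021912 to 116027962, minus strand) was at 330, 318 and 329 CPM in control and at 332, 351 and 293 CPM in EV-treated libraries. Its groups overlapped, and the log2 fold change was -0.00 (SE 0.11, edgeR adjusted p = 0.995). Per length of counted sequence, H3f3a made up 33.8%, 37.6% and 36.7% of the H3.3 counts in control A, B and C and 62.6%, 66.3% and 60.8% in EV-treated A, B and C. Taking only the bin with the most counts in each gene, the shares were 38.2% ± 1.75 in control and 66.0% ± 2.60 in EV-treated libraries (SD, n = 3 each). The order of the H3.3 genes thus differed between the groups on both measures.

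Along H3f3a, no bin was called for a change in use. The bin of 327 bases near its 3' end held 0.285, 0.336 and 0.559 times the counts of the 151-base bin near its 5' end in control A, B and C, and 0.75, 0.722 and 0.681 times in EV-treated A, B and C. The groups did not overlap, and control C lay nearest to the EV-treated libraries. The use of that 3' bin had a log2 change of 0.41 (unadjusted p = 0.00967, edgeR adjusted p = 0.166). Per base, the log2 of the ratio was -2.92, -2.69 and -1.96 in control and -1.53, -1.58 and -1.67 in EV-treated libraries. Over 6339 entries with several well-counted bins, the median log2 ratio of 3' to 5' end counts per base was -0.92, -0.73 and -0.73 in control and -0.84, -0.88 and -0.86 in EV-treated libraries, which overlap. The part of this ratio in the H3f3a result was not tested, and the rise of H3f3a was 1.61 (log2) in the bin with the most counts alone.

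H1f0 encodes H1.0, a linker histone that binds DNA between nucleosomes and accumulates in resting and differentiated cells. It lies in 1 bin (chromosome 15, 79028212 to 79030498, plus strand). Its level was 21.2, 22.2 and 15.6 CPM in control and 5.21, 5.51 and 4.97 CPM in EV-treated libraries, with no overlap. The log2 fold change was -1.91 (SE 0.15, edgeR adjusted p = 3.42e-06), from 19.7 ± 3.59 to 5.23 ± 0.270 CPM (SD, n = 3 each). H1fx, the linker histone H1.10, was at 0.994, 1.17 and 0.61 CPM in control and 0.888, 0.738 and 0.828 CPM in EV-treated libraries. It was not called (log2 fold change -0.17, SE 0.29), and 96.0% to 100% of its entry's counts lay in bins within its transcript.

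Of the H2A.Z genes 1 was called. H2A.Z is placed at promoters by dedicated exchange complexes. H2afz (chromosome 3, 137864487 to 137866922, plus strand) was at 334, 346 and 262 CPM in control and 223, 281 and 199 CPM in EV-treated libraries. Control C lay below EV-treated B, so the groups overlapped. The log2 fold change was -0.42 (SE 0.16, edgeR adjusted p = 0.0382). That call was lost when control A, control B, EV-treated A or EV-treated C was left out (adjusted p = 0.0909, 0.0918, 0.101 and 0.104), and with the covariate of Y-linked genes described at the end. Of its windows of 150 bases, the read length, 43.8% also occur in other genes of the reference, so its counts may be shared. H2afv, which encodes the second H2A.Z protein, was at 15.4, 18.3 and 11.5 CPM in control and 13.4, 17.1 and 11.8 CPM in EV-treated libraries, a log2 fold change of -0.09 (SE 0.19) with no call. The difference between the H2A.Z genes was not tested.

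The macroH2A proteins carry a large extra domain behind the histone fold. H2afy, which encodes macroH2A1 (chromosome 13, 56073619 to 56136361, minus strand), was at 97.6, 104 and 93.1 CPM in control and 142, 137 and 130 CPM in EV-treated libraries. The groups did not overlap, and the log2 fold change was 0.47 (SE 0.10, edgeR adjusted p = 0.00194). Scaled by library totals only it was 0.10 and not called (adjusted p = 0.382), and the Y-linked covariate also ended the call. H2afy2, which encodes macroH2A2, was at 1.43, 1.37 and 0.833 CPM in control and 0.468, 0.932 and 0.648 CPM in EV-treated libraries. Those groups overlapped, and the log2 fold change of -0.82 (SE 0.32) had an edgeR adjusted p of 0.0469. In its bin with the most counts alone the log2 fold change was -0.14 (adjusted p = 0.674), and leaving out control A, control B, EV-treated A or EV-treated C also ended the call.

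H2afx and H2afj were not called. H2afx encodes H2A.X, the variant phosphorylated around DNA breaks, and is known to make messages of both kinds, ending at the stem-loop printed above or at a poly(A) tail further on. It was at 5.31, 7.45 and 5.75 CPM in control and 6.43, 7.32 and 6.19 CPM in EV-treated libraries (log2 fold change 0.11, SE 0.16). The counted sequence reaches 822 bases past its stem-loop. H2afj was at 57, 57.2 and 45.1 CPM in control and 44.3, 57.7 and 44.1 CPM in EV-treated libraries (log2 fold change -0.12, SE 0.14). In both genes the groups overlapped.

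Cluster genes were mostly near 0 in these libraries. Of the 65 genes, 2 had no count, 40 had counts under the filter, at most 30 in any library, and 23 in 22 entries were tested. Of those 22 entries, 12 rose, 2 fell and 8 were not called, a called share of 63.6% against 66.5% over all entries. Their median log2 fold change was 1.16. However, 8 of the 22 had at least 1 control library under the level the filter asks for (0.0735 CPM), and 7 of the 12 rises were among these 8. Such genes passed through their EV-treated libraries, so the counts over the tested genes are no measure of all 65. Among the 40 under the filter, the mean was higher in EV-treated libraries for 29 and lower for 11. The same split over all entries under the filter was not counted, so these numbers are no result about cluster genes. Single counts and the scaling also enter: Hist1h3i, with 1 count in 1 library of each group, is among the 29 (0.00177 and 0.00269 CPM).

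By type, the H1 entries tested numbered 2, of which 1 fell. Of 5 H2A entries 2 rose, of 7 H2B entries 5 rose and 1 fell, of 3 H3 entries 1 rose, and of 5 H4 entries 4 rose. Rises with a control library under the filter level were Hist1h2ad, Hist2h2ac (H2A), Hist1h2bj (H2B), Hist1h3d (H3), Hist1h4a, Hist1h4k and Hist1h4h (H4). Over all entries tested, 33.0% rose. Summed over all entries of a type, H2B went from 21.9, 23.8 and 18.4 CPM in control to 66.9, 81.8 and 66.7 CPM in EV-treated libraries. H4 went from 1.7, 1.71 and 1.2 to 3.66, 5.27 and 5 CPM. H1 went the other way, from 26.6, 29.7 and 32.7 to 13, 16.2 and 16.7 CPM. The H2A and H3 sums overlapped between the groups. Single genes carried the H2B and H1 sums. Without Hist1h2bc, H2B was at 5.78, 6.37 and 7.46 CPM and at 9.48, 11.5 and 14 CPM, and without the joined Hist2h2bb entry too at 1.93, 1.98 and 1.94 CPM and at 2.03, 3.17 and 2.93 CPM. Without Hist1h1c, H1 was at 0.175 to 0.284 CPM in control and 0.123 to 0.601 CPM in EV-treated libraries, which overlap.

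**Figure D2:**
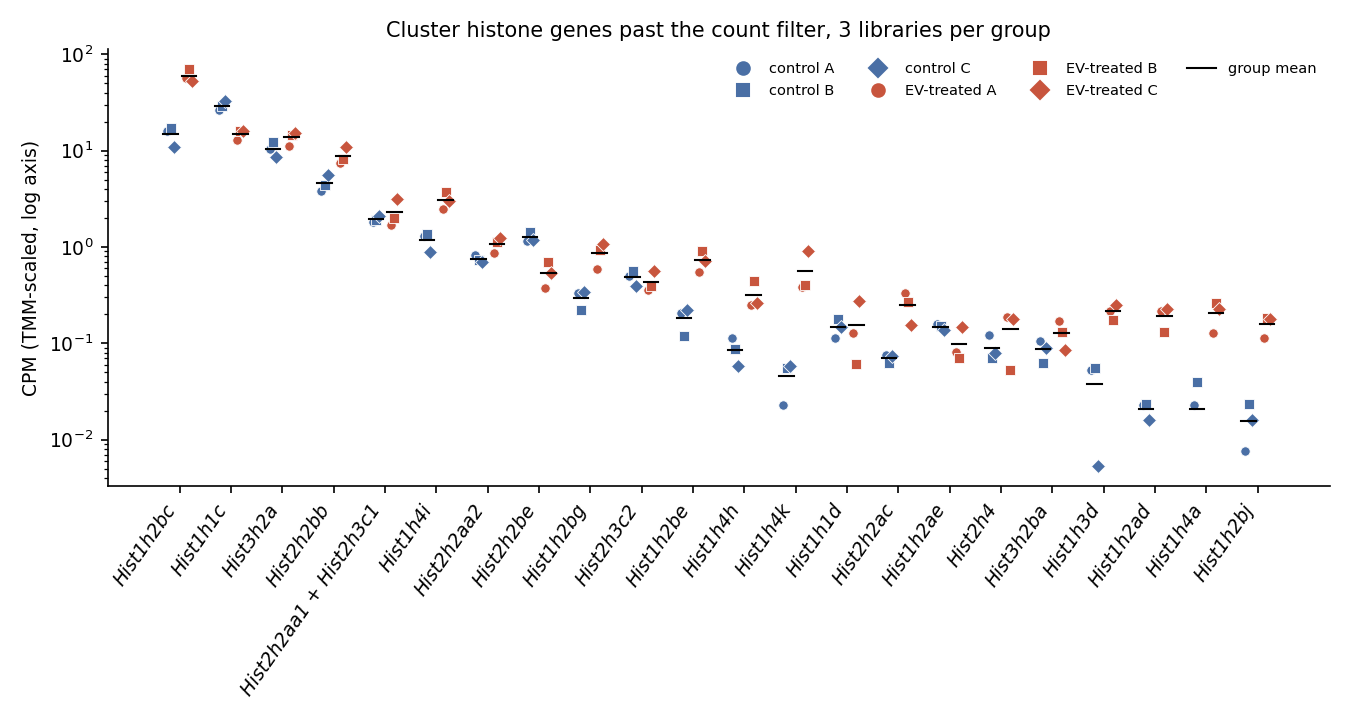
CPM (log axis) of the 22 cluster entries past the filter in each library, with colours, symbols and mean bars as for the replacement variants and zeros left off the axis. Hist1h2bc and Hist1h1c, with the most counts, moved apart (10.9 to 17.4 against 52.7 to 70.3 CPM, and 26.4 to 32.5 against 12.8 to 16.1 CPM) and Hist1h4k has the highest fold (0.0228 to 0.0584 against 0.387 to 0.906 CPM).

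Hist1h2bc was the cluster entry with the most counts. It encodes an H2B and, unlike most cluster genes, has an annotated second exon (chromosome 13, 23684199 to 23692488, plus strand). Its level was 16.1, 17.4 and 10.9 CPM in control and 57.5, 70.3 and 52.7 CPM in EV-treated libraries, with a log2 fold change of 2.02 (SE 0.18, edgeR adjusted p = 8e-06). All EV-treated libraries lay above all control libraries. The second exon (23692176 to 23692488), which lies past the coding sequence, held 40.6%, 40.1% and 42.1% of the gene's counts in control A, B and C. In EV-treated A, B and C it held 42.9%, 44.5% and 43.1%; the Wilson 95% intervals of the libraries ran from 38.1% to 45.5% and cover counting error only. Both exons went up: the second from 6.53, 6.99 and 4.59 CPM to 24.7, 31.3 and 22.7 CPM. The annotated transcript holds no stem-loop match, and 17.4% of its 150-base windows also occur in other genes, all of them H2B genes.

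Hist1h1c, which encodes the linker histone H1.2, fell. It was at 26.4, 29.4 and 32.5 CPM in control and 12.8, 16.1 and 16.1 CPM in EV-treated libraries, with no overlap. The log2 fold change was -0.98 (SE 0.13, edgeR adjusted p = 0.000112). Its single bin runs 840 bases past the stem-loop printed above, and none of its windows is shared with another gene. Hist2h2be, an H2B gene with a long annotated transcript and no stem-loop match, also fell, from 1.15, 1.44 and 1.19 CPM to 0.379, 0.694 and 0.539 CPM. Its log2 fold change was -1.23 (SE 0.28, edgeR adjusted p = 0.00322), opposite in sign to the other H2B genes called, and the call was lost with the Y-linked covariate.

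Hist3h2a, an H2A gene, has a bin that lies wholly past the stem-loop. Its entry was at 10.4, 12.3 and 8.57 CPM in control and 11.3, 14.7 and 15.4 CPM in EV-treated libraries. Of the counts, 97.2% to 98.2% lay in bins within the Hist3h2a transcript, which exons of Trim17 may also overlap. The groups overlapped, and the log2 fold change of 0.40 (SE 0.17) had an edgeR adjusted p of 0.0566. It passed the threshold under several other settings, DESeq2 among them (0.43, adjusted p = 0.0303). The bin past its stem-loop runs from 58955393 to 58956830. Of the counts in bins within the transcript, it held 21.3%, 19.9% and 22.9% in control A, B and C. In EV-treated A, B and C it held 22%, 22.8% and 24.1%. The stem-loop ends at 58955187, inside the bin before, so these shares leave out the sequence between. Counts past the stem-loop of Hist3h2a were thus present in all 6 libraries, at shares that overlapped between the groups.

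The H4 genes showed the same direction where called. Hist1h4i was at 1.3, 1.38 and 0.886 CPM in control and 2.49, 3.7 and 3.01 CPM in EV-treated libraries (log2 fold change 1.37, SE 0.24, edgeR adjusted p = 0.000586), with no overlap and 330 counted bases past its stem-loop. Hist1h4k went from 0.0228, 0.0552 and 0.0584 to 0.387, 0.404 and 0.906 CPM (3.59, SE 0.54, adjusted p = 0.000248). Hist1h4a went from 0.0228, 0.0394 and 0 to 0.129, 0.264 and 0.226 CPM (3.39, SE 0.80). In the last 2, every control library was under the filter level, so the fold rests on a few counts. Between 23.1% and 53.4% of the 150-base windows of those 2 genes also occur in other H4 genes.

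Among the remaining H2B and H2A genes, Hist1h2bg rose from 0.334, 0.221 and 0.34 CPM to 0.589, 0.932 and 1.07 CPM (1.53, SE 0.34, edgeR adjusted p = 0.00268). The entry of Hist1h2be rose from 0.205, 0.118 and 0.223 CPM to 0.549, 0.914 and 0.718 CPM (1.98, SE 0.37, adjusted p = 0.000943). With the Y-linked covariate neither Hist1h2bg nor Hist1h2be was called. The 2224-base bin of Hist1h2be held 6, 11 and 25 counts in control and 63, 88 and 74 in EV-treated libraries, and its 1750-base bin held 12, 3 and 8 and then 2, 5 and 8. The rise of the entry thus lay in the first of these bins, although no bin was called for a change in use. Hist1h2bj rose from 0.00759, 0.0236 and 0.0159 CPM to 0.113, 0.185 and 0.18 CPM (3.27, SE 0.59). Hist1h2ad, an H2A gene, rose from 0.0228, 0.0236 and 0.0159 CPM to 0.218, 0.132 and 0.226 CPM (3.18, SE 0.53), and shares 59.3% of its windows with other genes. In these last genes too every control library was under the filter level, so both passed through their EV-treated libraries and their folds rest on a few counts; Hist1h2bj was not called with the Y-linked covariate.

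Some joined or repeated entries say little about their histone. Hist2h2bb's entry rose from 3.86, 4.4 and 5.53 CPM to 7.45, 8.28 and 11 CPM (0.96, SE 0.19, edgeR adjusted p = 0.00157). Only 29.5% to 35.8% of those counts lay in bins of Hist2h2bb, and the rest in bins of the noncoding gene alone. The entry of Hist2h2aa1 and Hist2h3c1 was at 1.81, 1.91 and 2.12 CPM in control and 1.7, 1.99 and 3.18 CPM in EV-treated libraries (0.23, SE 0.25, no call). Bins of Hist2h3c1, an H3 gene, held 89.4% to 97.9% of it. Hist2h3c2, a close copy of Hist2h3c1, was at 0.501, 0.567 and 0.393 CPM and at 0.355, 0.396 and 0.562 CPM (-0.15, SE 0.32, no call). Hist2h2aa2 was at 0.82, 0.733 and 0.7 CPM and at 0.864, 1.12 and 1.23 CPM, which do not overlap (0.51, SE 0.24, edgeR adjusted p = 0.0874), and all of its windows occur in other genes. The other 7 tested cluster entries lay at 0.0053 to 0.44 CPM in every library: Hist1h4h, Hist2h2ac and Hist1h3d rose (1.81 to 2.56), each with at least 1 control library under the filter level, and Hist1h1d, Hist1h2ae, Hist2h4 and Hist3h2ba were not called.

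Counted sequence past the stem-loop varied widely among the cluster genes. Of the 42 with a stem-loop, 13 had 100 or more counted bases past it and 29 had fewer. Of the 18 tested entries with a stem-loop match, 9 rose, 1 fell and 8 were not called. Of the 4 tested entries with no match, 3 rose and 1 fell, against 66.5% called over all entries. Among those 3 rises, Hist1h4k had every control library under the filter level. Another was the Hist2h2bb entry, with only 29.5% to 35.8% of its counts in bins of Hist2h2bb. The difference between entries with and without a match was not tested.

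**Figure D3:**
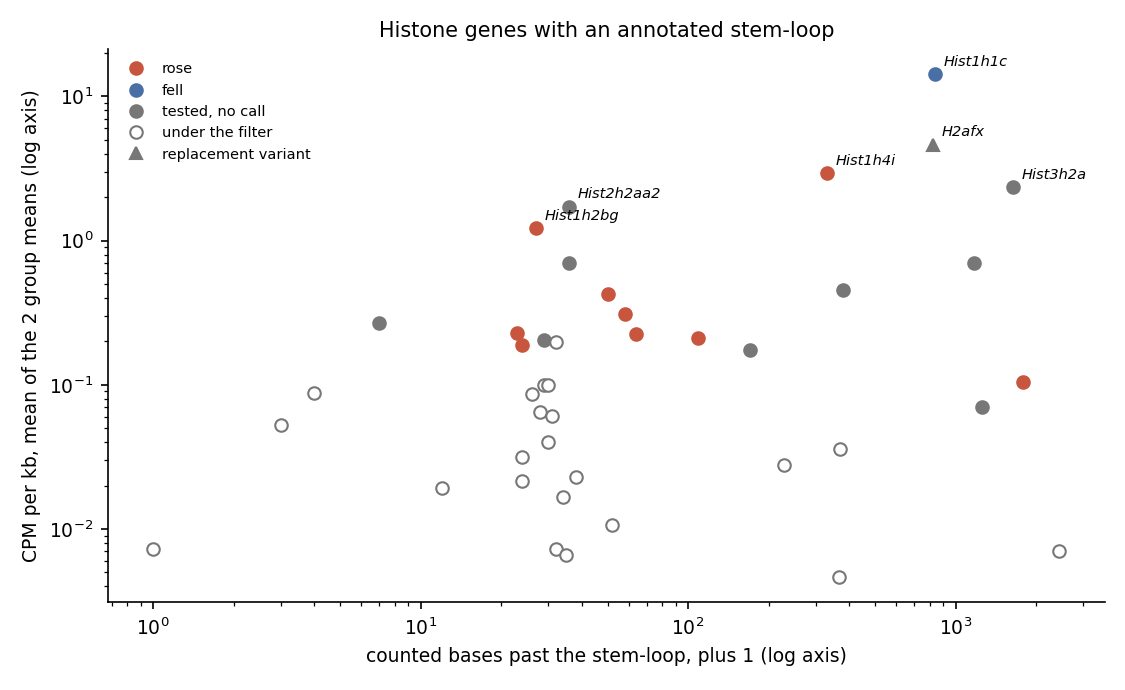
CPM per kb of counted sequence (mean of both group means, log axis) of each histone gene with an annotated stem-loop against the counted bases past that stem-loop plus 1 (log axis); fill marks the call, open circles are genes under the filter, the triangle is H2afx, and genes with no count are left off. Hist1h1c (18.9 CPM per kb in control, 9.59 in EV-treated libraries) has 840 counted bases past it and Hist1h4i (1.63 and 4.22) has 330; joined entries such as that of Hist3h2a are divided by the length of the whole entry, which lowers them.

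As sums over each class, both were higher in EV-treated libraries. The cluster sum was 64.2, 71.2 and 64.4 CPM in control and 98.9, 122.5 and 109.7 CPM in EV-treated libraries, a ratio of the means of 1.66. The replacement sum was 1061, 1101 and 988 CPM in control and 1424, 1668 and 1227 CPM in EV-treated libraries, a ratio of 1.37. The sign of each difference depended on 1 gene. Without Hist1h2bc the cluster ratio was 0.969, and without H3f3a the replacement ratio was 0.926. The value of 0.969 still includes Hist1h1c, which fell. By type, the ratio was 0.515 for cluster H1, 1.78 for cluster H2B without Hist1h2bc and 3.02 for cluster H4. Hist1h1c took 41.1%, 41.3% and 50.4% of the cluster counts in control libraries and 12.9%, 13.1% and 14.6% in EV-treated ones. Hist1h2bc took 25%, 24.5% and 16.9%, and then 58.1%, 57.4% and 48%. Cluster genes made up 5.71%, 6.08% and 6.12% of all histone counts in control libraries and 6.5%, 6.84% and 8.21% in EV-treated ones, shares of counts and not of molecules. A gene cut into many short bins weighs more in such shares: a bin of 7 bases in H2afz held 4178 counts in control A. Fewer cells and less RNA per cell cannot be told apart in bulk samples.

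Because counts are kept per exon bin, the use of single bins within a gene was also tested. edgeR's diffSpliceDGE called 19.1% of 14190 entries at a gene-level adjusted p under 0.05. Of the 13 member entries with several bins, 4 were called, all replacement variants: H2afy, H3f3b, H2afz and H1fx. H3f3a (adjusted p = 0.424) and Hist1h2bc were not called. H1fx (adjusted p = 0.047) had no bin called; its bin outside the H1fx transcript held 3, 6 and 4 counts in control and 0 in each EV-treated library. Its call was lost with limma's diffSplice (0.0886), with the replicate letter as a block (0.0546), and without control A (0.0926), EV-treated A (0.150), EV-treated B (0.119) or EV-treated C (0.134). H2afz (adjusted p = 0.0333) lost its call with limma's diffSplice (0.095) and without control A (0.620), control B (0.520) or EV-treated A (0.229).

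The macroH2A1 gene H2afy had the lowest gene-level p of the members (adjusted p = 3.96e-09). Its coding transcripts use 1 of 2 neighbouring exons, never both: the 91-base exon of H2afy-202, whose coding sequence spans 1107 bases, or the 100-base exon of H2afy-201, whose coding sequence spans 1116 bases. These are the macroH2A1.1 and macroH2A1.2 forms, and the first is known for binding ADP-ribose, which the second does not do. The exons are shown because the finding turns on them, both on the minus strand of GRCm38.
H2afy-202 exon, chr13:56088252-56088342: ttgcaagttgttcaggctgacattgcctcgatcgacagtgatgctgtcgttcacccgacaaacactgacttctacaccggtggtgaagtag
H2afy-201 exon, chr13:56089758-56089857: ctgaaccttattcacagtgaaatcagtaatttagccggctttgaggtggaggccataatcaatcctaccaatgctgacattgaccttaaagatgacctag
The gene as a whole rose with TMM scaling, but was not called with library totals only or with the Y-linked covariate. The 91-base exon held 439, 404 and 669 counts in control A, B and C and 188, 194 and 219 in EV-treated A, B and C. Relative to the rest of the gene, use of the 91-base exon had a log2 change of -1.04 (edgeR bin-level adjusted p = 1.58e-09). The 100-base exon held 629, 641 and 675 counts in control and 1149, 981 and 956 in EV-treated libraries, a log2 change in use of 0.31 that was not called (adjusted p = 0.184). The 91-base exon thus made up 41.1%, 38.7% and 49.8% of the counts of both exons in control A, B and C. In EV-treated A, B and C it made up 14.1%, 16.5% and 18.6%. The Wilson 95% intervals, for counting error only, reached from 35.8% to 52.4% over the control libraries and from 12.3% to 21.0% over the EV-treated ones, with no overlap. A retained-intron transcript of H2afy also covers the 100-base exon, and the bin beside that exon, of that transcript alone, held 42 to 156 counts per library.

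**Figure D4:**
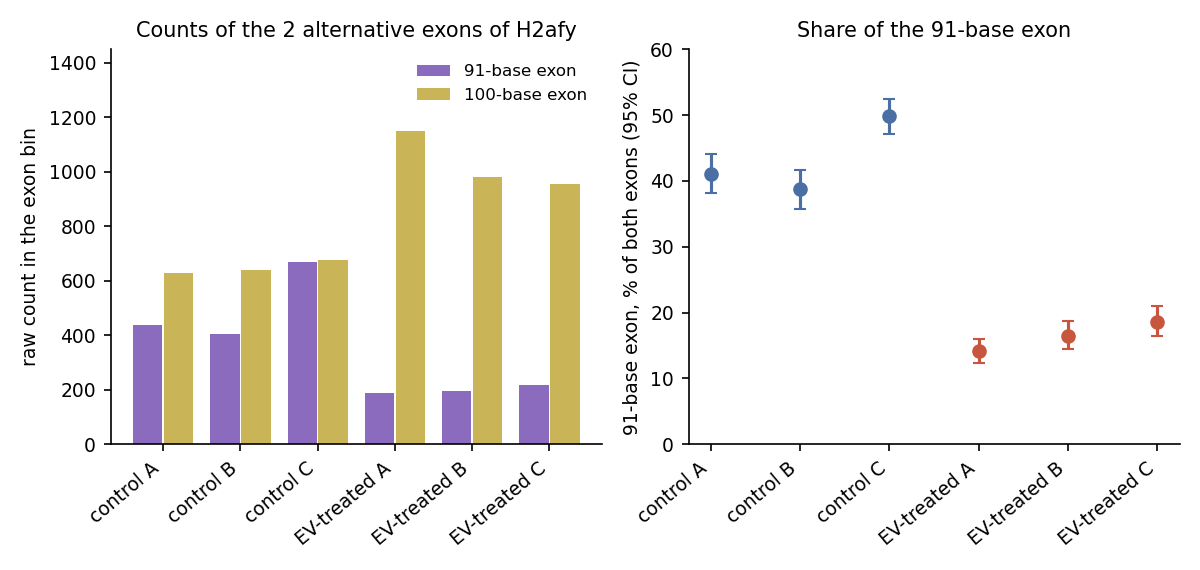
Left, raw counts in the 91-base (purple) and 100-base (yellow) exon bins of H2afy in each library; right, the 91-base exon as a percentage of both, with 95% Wilson intervals, control in blue and EV-treated in red. The share lies at 38.7% to 49.8% in control and at 14.1% to 18.6% in EV-treated libraries.

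H3f3b, whose level was not called with TMM scaling, changed in the use of its 5' end (gene-level adjusted p = 0.000196). Its level against control depends on that scaling, since library totals alone moved the median log2 fold change over all entries to -0.38. The 4 bins called, from 116024505 to 116027962, lie upstream of the main first exon and belong to the transcripts H3f3b-202 and H3f3b-204. All 4 were used less in EV-treated libraries, with log2 changes of -0.50 to -0.71. The longest, of 204 bases, held 257, 248 and 435 counts in control and 120, 128 and 143 in EV-treated libraries, against 8957, 8439 and 11993 and then 7571, 7379 and 6975 counts in the gene's bin with the most counts. The upstream bins are therefore a small part of H3f3b's counts.

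Genes that act on histone messages and proteins were counted beside the members. Calls in these lists read against 66.5% of all entries called, with 33.0% rising and 33.5% falling. Of 18 factors of stem-loop histone messages 9 rose and 5 fell (median of the log2 fold changes 0.35). Slbp, which binds the stem-loop, had 24.1 to 24.6 CPM in control and 43.5 to 45.3 CPM in EV-treated libraries (0.87, SE 0.09, edgeR adjusted p = 1.95e-05). Lsm11, a protein of the U7 particle that guides the cut, rose from 7.76 to 8.19 CPM to 19.3 to 22.8 CPM (log2 fold change 1.40), Zfp473, a zinc-finger protein of the U7 complex, rose by 2.09, and Cstf2, a cleavage factor in a joined entry, rose by 1.81. Cpsf3, the nuclease that makes the cut for both kinds of message, fell from 50.9 to 61 CPM to 25.4 to 26.8 CPM (log2 fold change -1.07, SE 0.10, adjusted p = 1.29e-05). Upf1, a helicase of message decay, had -0.71 and Srrt, in a joined entry, -0.71. Slbp was chosen after its values were seen.

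Of 16 factors of general polyadenylation 8 rose and 3 fell, with a median of 0.38, in data where 66.5% of all entries were called. Pcf11 (log2 fold change 1.49), Rbbp6 (0.90) and Cpsf7 (0.66) rose, and Cpsf1 (-0.94), Cstf2t (-0.72) and Pabpn1 (-0.37, in a joined entry) fell. Scaled by library totals only, 5 of these 16 rose and 5 fell, and of the 18 stem-loop factors 5 rose.

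Histone chaperones moved in both directions, in data where 33.0% of all entries rose and 33.5% fell. Of 16 replication-coupled chaperones 6 rose and 6 fell (median log2 fold change -0.24), and with library totals alone 10 fell. Chaf1b, a subunit of CAF-1, which lays down H3 and H4 behind the fork, rose from 9.18 to 10.2 CPM to 35.2 to 52.9 CPM (2.20, SE 0.15, edgeR adjusted p = 1.22e-06). Chaf1a, another CAF-1 subunit, named after its values were seen, fell from 7.86 to 8.89 CPM to 4.74 to 6.53 CPM (-0.55, SE 0.15, adjusted p = 0.00927). Hat1, which acetylates new H4, rose by 1.72, and the H2A and H2B chaperone Nap1l4 by 1.57. Mms22l (-1.28), its partner Tonsl (-0.63) and Rbbp7 (-0.62) fell. Of 18 chaperones and exchangers of variants 6 rose and 5 fell (median 0.07), and 3 rose with library totals alone. Hira, which deposits H3.3, had 39.9 to 42.8 CPM in control and 26.3 to 30.8 CPM in EV-treated libraries (-0.49, SE 0.10, adjusted p = 0.00206; in a joined entry). Atrx, which deposits H3.3 at repeats, also fell (-0.59). Ruvbl2, an ATPase of the H2A.Z exchange complexes, rose by 1.91 and its partner Ruvbl1 fell (-0.95), while Anp32e, which removes H2A.Z, rose by 0.74 and Hjurp, the chaperone of the centromeric H3, by 1.41.

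S phase genes mostly fell: 21 of 29, with 4 rising and a median log2 fold change of -0.82 (25 and 2 with library totals alone). Over all entries, 33.5% fell and 33.0% rose. Rrm2, a subunit of ribonucleotide reductase, went from 7.56, 10.2 and 10.2 CPM to 0.961, 0.686 and 0.508 CPM. The helicase subunit genes Mcm3 (-1.60) and Mcm6 (-1.61) fell, and the cyclin E genes Ccne2 (1.78) and Ccne1 (0.51) rose. Of 23 RNAs without a poly(A) tail, 9 entries passed the filter, 5 of them joined with other genes. The 2 called falls (Rnu7 and Scarna10) were both in joined entries with protein-coding genes. Tail-less RNAs in entries of their own summed to 0.759 to 1.49 CPM in control and 0.823 to 1.47 CPM in EV-treated libraries, ranges that overlap.

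**Figure D5:**
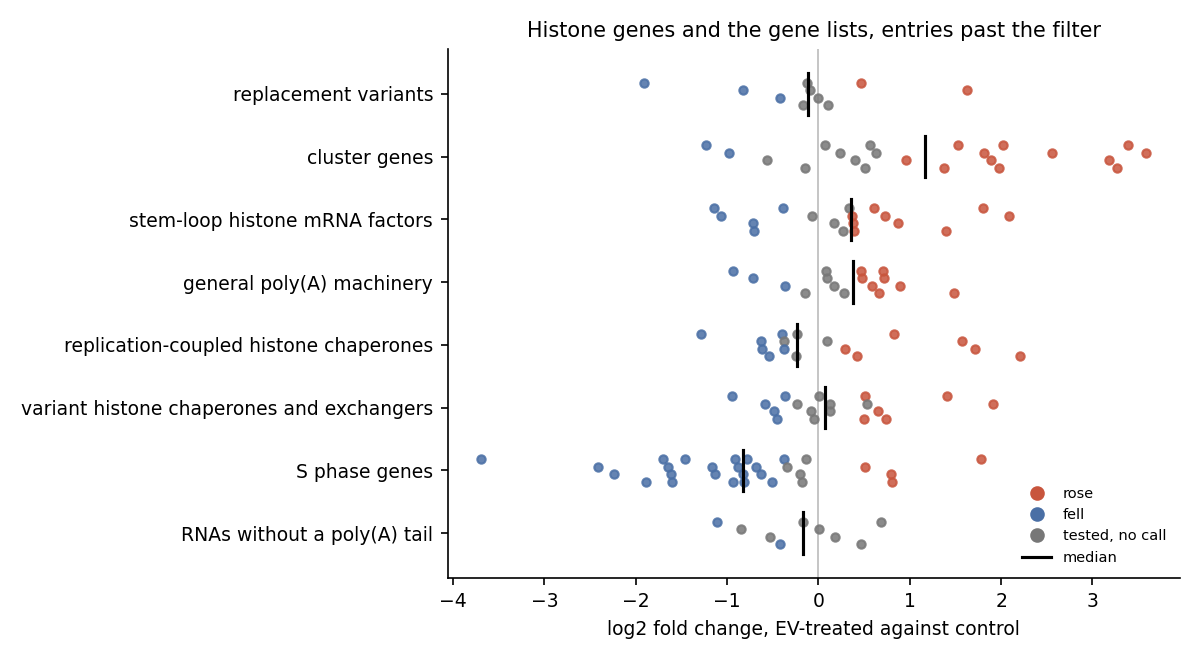
Log2 fold change, EV-treated against control, of each tested entry of the histone classes and of the 6 gene lists; red rose, blue fell, grey was not called, and the black bar is the median. Cluster genes (median 1.16; 7 of the 12 rises had a control library under the filter level) lie mostly right of 0 and S phase genes (median -0.82) mostly left of it, while replacement variants spread around -0.11.

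Other markers moved with the groups, in data where 66.5% of all entries were called. Of 14 microglia and macrophage markers all passed the filter, with 1 rising and 10 falling; their sum in entries of their own was 8758 to 10478 CPM in control and 4925 to 5635 CPM in EV-treated libraries. Of 7 astrocyte markers 5 were tested, of which 3 rose and 1 fell. Those in entries of their own summed to 0.268 to 0.637 CPM in control and 86 to 122.5 CPM in EV-treated libraries, nearly all from Slc1a2 and Gja1, while Gfap was at 0.143 CPM or less in all 6. Aldh1l1, in a joined entry, went the other way, from 10.6 to 15.3 CPM to 1.04 to 2.29 CPM (-2.96). Of 5 oligodendrocyte markers tested 1 rose and 2 fell: Cspg4 (-3.58) and Mbp (-2.07) fell and carried the sum from 212.6 to 440.0 CPM to 27.8 to 41 CPM, and Pdgfra (3.45, in a joined entry) rose. Of 3 progenitor markers tested Nes fell (-4.79), Prom1 rose (4.01) and Pax6 was not called, and the sum, mostly Nes, was 46 to 82.8 CPM in control and 3.12 to 4.36 CPM in EV-treated libraries. Of 6 markers of fibroblasts and endothelium tested 3 rose (Dcn, Pecam1 and Cdh5) and 2 fell (Col1a1 and Col3a1), with sums of 13.8 to 36.3 CPM and 13.9 to 20.5 CPM. Of 3 neuron markers tested Rbfox3 fell, and the sum was 0.367 to 0.809 CPM over all 6 libraries. The part of other cells in the histone results was not tested.

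The libraries also differed in sex-linked RNA. Ddx3y, a Y-linked gene, was at 21.1 and 18.8 CPM in control A and B, 9.59 CPM in control C and 6.66 to 8.04 CPM in EV-treated libraries, and the entry of Xist was at 141, 152 and 346 CPM in control and 455 to 847 CPM in EV-treated libraries. With the mean log2 CPM of 4 Y-linked genes as a covariate, which itself differs between the groups, H3f3a (1.46, edgeR adjusted p = 0.01), H1f0 (-1.38, 0.00161), Hist1h2bc (2.70, 0.000277) and Hist1h1c (-1.15, 0.00587) were still called. H2afz (-0.02, adjusted p = 0.961), H2afy2 (0.16, 0.842), H2afy (0.56, 0.0679), Hist2h2be (-1.03, 0.160), Hist1h2bg (1.498, 0.121), Hist1h2bj (3.44, 0.0747), Hist2h2ac (1.45, 0.296), Hist2h2bb (0.62, 0.212) and Hist1h2be (1.71, 0.110) were not.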

How the data were processed

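Polyadenylated RNA of 6 microglia libraries, 3 control and 3 EV-treated, was sequenced as reads of 150 bases. The deposited tables hold whole-number counts per exon bin, per the file headers, not normalized by the authors. Trimmomatic 0.36, STAR, Subread and DESeq2 with GRCm38 are named in the submitters' processing notes; the settings, annotation release and strand were not given in the sources used here. Reads of overlapping or antisense genes may therefore be mixed.

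Bins were summed per gene entry and named from GENCODE vM21, with 49298 of 49644 identifiers matched. Entries past filterByExpr (minimum count 10) were scaled by TMM and tested with edgeR 4.0.16 (R 4.3.3), quasi-likelihood, EV-treated against control, with Benjamini-Hochberg adjustment over 16605 entries and a threshold of 0.05. Bin usage was tested with diffSpliceDGE. Tested on simulated data, edgeR called 46 of 50 genes set to a log2 change of -1 and 45 of 50 at 1. It called all 50 at -2 and at 2, and 8 of 11686 unchanged genes (11886 genes run). Most genes run were thus unchanged, whereas 66.5% of the entries in these libraries were called. Recovery with that share of changed genes was not tested, and recovery at the low CPM of most cluster genes was not measured apart. The same check of diffSpliceDGE on 4000 genes used the gene-level test on genes with 1 changed bin. It called 20 and 26 of 50 such genes at -1 and 1, and 49 and 50 at -2 and 2. Whether the changed bin itself was called was not measured. DESeq2 1.42.0, limma 3.58.1 (voom), other scalings and filters, the bin with the most counts, left-out libraries and a covariate of Y-linked genes, added after seeing the data, were alternatives.

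The members and gene lists were chosen with earlier results of these data known. Values of every library are given for the replacement variants tested, the 12 highest cluster genes by mean log2 CPM, the 4 largest other rises and falls among called cluster genes, and from each list up to 3 rising and 3 falling genes with the smallest p. For list genes most values are given as fold changes. A gene that this rule names in the S phase list is not reported here.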

Additional observations from a re-analysis of the deposited data

How the results depend on the processing

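H3f3a (log2 fold change 1.25 to 1.75), H1f0 (-2.28 to -1.38), Hist1h2bc (1.66 to 2.70), Hist1h1c (-1.34 to -0.89) and Hist1h4i (1.01 to 2.12) kept direction and call in every alternative run. Over 33 member fold changes, 510 of 544 values kept direction and side of the threshold, 20 lost the call, 13 gained it and 1 reversed. That was H2afy2, at 0.16 with the covariate of Y-linked genes. With that covariate 1 cluster entry fell, and 1 replacement variant rose and 1 fell. With library totals alone 1 replacement variant rose and 6 fell. A minimum of 50 counts in 3 libraries left 6 cluster rises, since fewer genes were tested, and a threshold of 0.01 left 1 replacement fall. Leaving out each library gave 12 to 14 cluster rises, 2 cluster falls, 2 replacement rises, 1 to 3 replacement falls and 2 to 4 entries with changed bin usage; the replacement falls dropped to 1 without control A, control B, EV-treated A or EV-treated C.

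The cluster and replacement totals, as ratios, were 1.28 and 1.06 when scaled by library totals only, and 1.37 and 1.14 for the bin with the most counts. Without the member with the most counts they were 0.969 and 0.926, below 1 in both classes, with the falling Hist1h1c still in the cluster sum. Leaving out each library gave 1.57 to 1.74 and 1.26 to 1.47. Where a cause is not named here, the cause was not tested.

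The replicate letters of the labels were not taken as a pairing, and whether they pair libraries was not tested. Deviations of same-lettered libraries correlated at 0.035 for A, 0.167 for B and 0.210 for C. Those of differently lettered libraries were all lower. They ran from -0.199 (control B with EV-treated C) to 0.0341 (control B with EV-treated A). The library numbers in the headers do not follow the letters: control A shares its number with EV-treated B, and control B with EV-treated C. Those same-numbered pairs correlated at 0.00973 and -0.199. With the replicate letter as a block, 13 cluster entries rose and 2 fell, 2 replacement variants rose and 3 fell, and 5 entries changed in bin usage; Hist3h2a gained its call (0.41, edgeR adjusted p = 0.0434). Depth limits the cluster genes under the filter, where a count of 0 allows up to 3 counts.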

Other observations

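Pseudogenes of the members, left out by the choice of symbols, also had counts. Hist1h2al, annotated as a pseudogene, was at 13.6, 14.2 and 11.2 CPM in control and 30.6, 40 and 31 CPM in EV-treated libraries (log2 fold change 1.38, SE 0.14, edgeR adjusted p = 2.02e-05). H3f3a-ps1 was at 0.243, 0.197 and 0.308 CPM and at 1.03, 1.37 and 0.835 CPM (2.10, SE 0.32, adjusted p = 0.000252). H3f3c was at 0.0607, 0.0788 and 0.101 CPM and at 0.323, 0.281 and 0.273 CPM (1.84, SE 0.40, adjusted p = 0.00267). In all 3 the groups did not overlap, and how reads of these copies were divided between copy and parent gene was not tested. H3f3a-ps2 (0.47, SE 0.54) and the antisense RNA H3f3aos (0.25, SE 0.55) were not called.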
